A study of Mus musculus with 12 samples.

Results

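The genes described here are the 7 acyl-CoA thioesterases Acot1, Acot2, Acot3, Acot4, Acot8, Acot12 and Acot13 and the acyltransferases Acnat1 and Acnat2. They were chosen by name, and all 9 were present among the 19252 genes of the deposited gene table of mouse liver. The table covers 12 libraries of total liver RNA from C57BL/6 mice, 4 in each of 3 groups. The first group, NFD, received a normal fat diet. The second, HFD, received a high fat diet. The third, NAC_HFD, received the high fat diet together with N-acetylcysteine, a cysteine precursor, at 2 g per litre of drinking water. All groups were fed for 14 weeks. Their age is labelled as 8 weeks, and whether that means the start of feeding is not stated. The labels name no genetic change and do not say whether each library came from 1 animal, so the p-values below measure only the spread between these samples. Levels are TPM, a length-corrected share of all transcripts in a library, which the authors computed. These levels can be compared between genes, but they keep no read depth.

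Acyl-CoA thioesterases split fatty acyl-CoA into the free fatty acid and coenzyme A, the reverse of the step by which acyl-CoA synthetases activate fatty acids. In liver they help to set how much coenzyme A and how much free fatty acid each compartment holds. Acot1 acts in the cytosol and Acot2 in mitochondria, both on long-chain acyl-CoA. Acot3, Acot4 and Acot8 are peroxisomal, and Acot4 is known for its activity on succinyl-CoA. Acot12 splits acetyl-CoA in the cytosol, and Acot13, also called Them2, is associated with mitochondria and binds the phosphatidylcholine transfer protein. Acnat1 conjugates fatty acids to taurine in peroxisomes, and Acnat2 is its close paralog next to it on the chromosome. The related gene Baat encodes the enzyme that conjugates bile acids to taurine or glycine. Several Acot genes are textbook targets of PPARalpha, the nuclear receptor through which fatty acids raise genes of fatty acid oxidation.

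The genes lie in few places of the mouse genome, here given for build GRCm38.p6 of RefSeq, and all 9 are annotated as protein coding. Acnat2 (ENSMUSG00000060317, chr4:49374458-49408151), Acnat1 (ENSMUSG00000070985, chr4:49443532-49481315) and Baat (chr4:49489416-49507915) are neighbours. Acot2 (ENSMUSG00000021226, chr12:83987861-83993877), Acot1 (ENSMUSG00000072949, chr12:84009502-84017670), Acot4 (ENSMUSG00000052392, chr12:84037254-84044723) and Acot3 (ENSMUSG00000021228, chr12:84052144-84060400) stand in a row with Acot5 and Acot6, and the 6 genes span 122 kb. Acot8 (ENSMUSG00000017307) is at chr2:164792768-164820219, Acot13 (ENSMUSG00000006717) at chr13:24817955-24831489 and Acot12 (ENSMUSG00000021620) at chr13:91741326-91786148. RSEM, a program that apportions reads shared by several transcripts by their estimated abundance, is named in the submitters' processing notes. Its settings are not stated, so the split of reads between close paralogs such as Acot1 and Acot2, Acot3 and Acot4 or Acnat1 and Acnat2 is uncertain.

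Promoter windows of RefSeq, 250 bases before to 50 bases after a transcription start, are shown for the 2 pairs whose levels the results turn on: the neighbours Acnat2 and Acnat1, of which only the first separated HFD from the other groups, and Acot3 and Acot4, which varied together. Each is written 5′ to 3′ on the strand of its gene, in build GRCm38.p6. Capitals mark AGGTCA, the half-site of nuclear receptors such as PPARalpha, and CCAAT, the CCAAT box, each on either strand (as TGACCT and ATTGG on the other). The 2 motifs share no bases in these windows.
Acnat2, chr4:49408102-49408401, minus strand: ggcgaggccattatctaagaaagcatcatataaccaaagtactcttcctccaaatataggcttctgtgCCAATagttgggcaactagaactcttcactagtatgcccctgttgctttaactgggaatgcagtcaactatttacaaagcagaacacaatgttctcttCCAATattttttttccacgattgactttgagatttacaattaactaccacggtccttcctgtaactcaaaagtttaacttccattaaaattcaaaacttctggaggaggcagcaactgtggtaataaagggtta
Acnat2, second start, chr4:49405709-49406008, minus strand: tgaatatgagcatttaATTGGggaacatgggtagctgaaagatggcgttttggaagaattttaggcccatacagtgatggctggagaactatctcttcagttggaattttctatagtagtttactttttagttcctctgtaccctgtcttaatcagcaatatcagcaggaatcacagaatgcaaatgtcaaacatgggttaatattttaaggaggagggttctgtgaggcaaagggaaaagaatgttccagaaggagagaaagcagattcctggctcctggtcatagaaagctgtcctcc
Acnat1, chr4:49451060-49451359, minus strand: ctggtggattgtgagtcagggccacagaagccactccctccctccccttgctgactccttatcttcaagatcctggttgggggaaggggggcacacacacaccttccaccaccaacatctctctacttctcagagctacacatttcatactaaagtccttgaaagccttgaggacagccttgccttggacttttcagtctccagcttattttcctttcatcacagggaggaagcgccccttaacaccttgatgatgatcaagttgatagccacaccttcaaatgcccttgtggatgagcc
Acot3, chr12:84051894-84052193, plus strand: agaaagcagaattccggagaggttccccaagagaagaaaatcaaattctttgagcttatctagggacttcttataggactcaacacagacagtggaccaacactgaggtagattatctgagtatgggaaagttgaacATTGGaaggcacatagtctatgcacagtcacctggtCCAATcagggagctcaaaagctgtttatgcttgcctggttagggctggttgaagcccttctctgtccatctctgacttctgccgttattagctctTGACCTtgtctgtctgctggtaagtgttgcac
Acot4, chr12:84038129-84038428, plus strand: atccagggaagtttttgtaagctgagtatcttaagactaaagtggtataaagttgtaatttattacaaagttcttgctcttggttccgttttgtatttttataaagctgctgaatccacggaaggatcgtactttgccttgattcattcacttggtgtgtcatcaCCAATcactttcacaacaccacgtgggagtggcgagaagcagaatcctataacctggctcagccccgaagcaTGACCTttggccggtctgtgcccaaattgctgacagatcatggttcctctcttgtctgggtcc
Windows were found for 8 of the 9 genes, 10 windows in all. AGGTCA was present in 3 of the 8 genes, Acot3, Acot4 and Acot12, and in 16.3% of all 32851 windows of the same length. CCAAT was present in 6 of the 8 genes, Acot1, Acot2, Acot3, Acot4, Acot8 and Acnat2, and in 37.4% of all windows. The window of Acnat1 held neither run of letters. That window lies inside the annotated gene and not at its 5′ end (49481315), so it is no like-for-like match to the first Acnat2 window. The windows of Acot4 and Acot8 also lie inside their genes, whose 5′ ends are at 84037254 and 164820219. No window at those 3 outer ends was read. These matches describe the letters of the windows and nothing was measured at them.

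Acnat2 had the smallest p of the 9 genes in both comparisons with HFD. Its level was 37.5 ± 5.71 TPM under NFD, 73.8 ± 17.6 TPM under HFD and 28.0 ± 13.1 TPM under NAC_HFD (mean ± SD, n = 4 in each group here and below). The mean on the high fat diet was thus 1.97 times that on the normal diet, and the mean with N-acetylcysteine 0.380 times that on the high fat diet alone. No gene among the 9 passed the test across all genes in any comparison. Of 11376 genes tested with limma, 2.78% passed an adjusted p of 0.05 for HFD against NFD. The share was 0% for NAC_HFD against HFD and 5.28% for NAC_HFD against NFD. The 601 genes behind the last share were 200 higher and 401 lower, against 371 higher and 251 lower after median-of-ratios scaling and 314 higher and 294 lower after quantile normalization. For NAC_HFD against HFD, 1870 genes (16.4%) had an unadjusted p under 0.05, and 3 genes passed when the replicate number was a block. Among the 9 genes the unadjusted p was under 0.05 for 3 genes in HFD against NFD, where 19.1% of all genes had such a p. It was so for 3 genes in NAC_HFD against HFD and for 1 in NAC_HFD against NFD, where 22.6% of all genes had such a p.

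**Figure D1:**
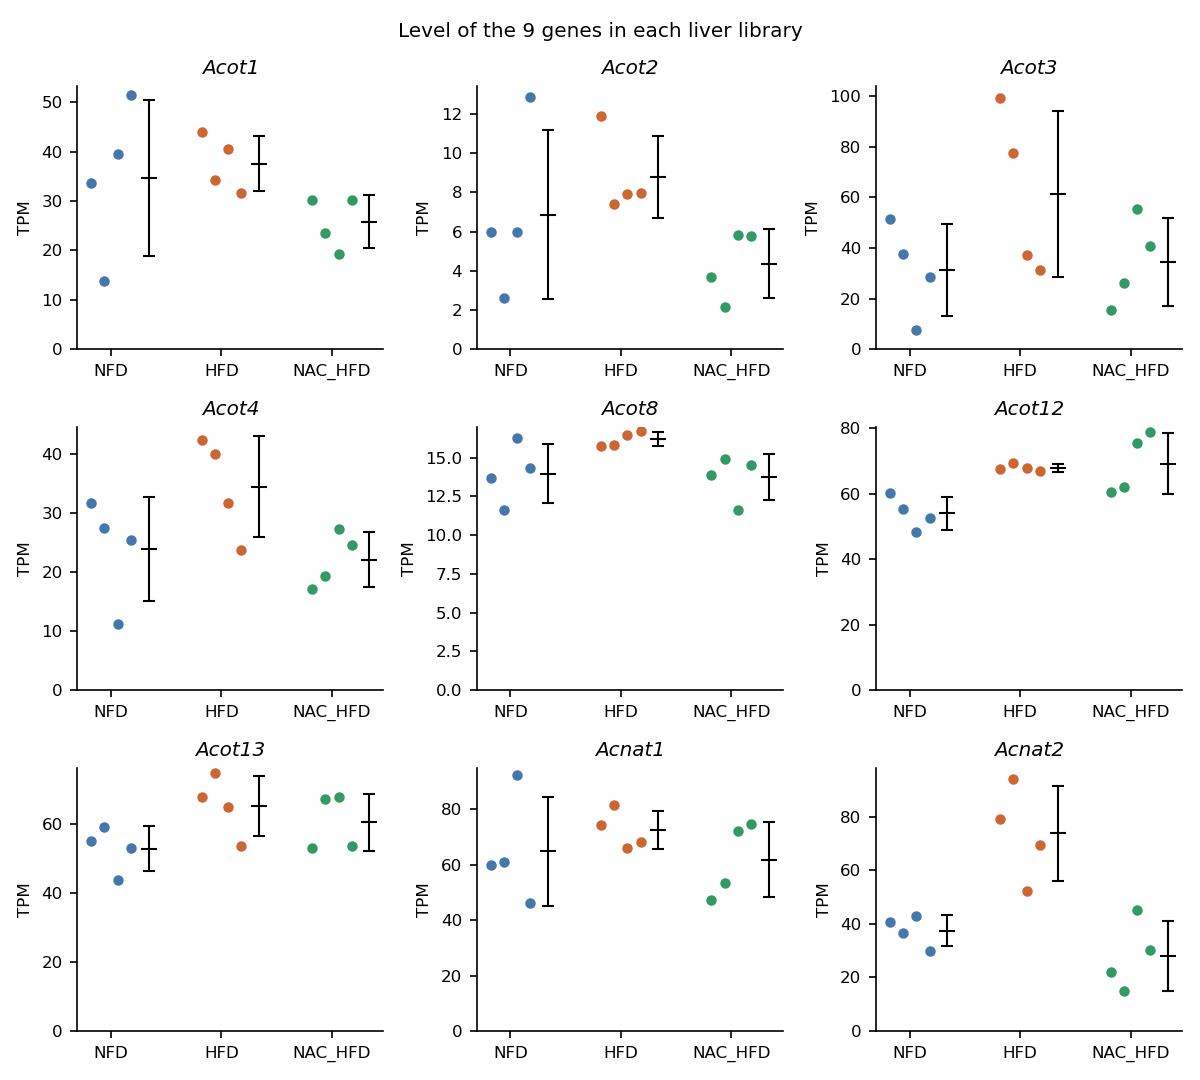
Level of each of the 9 genes in TPM (vertical axis, from 0) in the 4 libraries of NFD, HFD and NAC_HFD (horizontal axis), 1 point per library, with the group mean and SD as a black bar beside the points. The 4 HFD libraries of Acnat2 sit between 52.2 and 94.2 TPM, above every library of the other groups, while the groups of Acot3 and Acot4 overlap.

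The values of Acnat2 by library, in the order of the replicate numbers, were 40.6, 36.6, 42.9 and 29.9 TPM in NFD. They were 79.1, 94.2, 52.2 and 69.6 TPM in HFD. In NAC_HFD they were 21.9, 14.8, 45.2 and 30.2 TPM. Every HFD library lay above every NFD and every NAC_HFD library, and the NFD and NAC_HFD libraries overlapped. On the log2(TPM + 1) scale used for all fold changes here, the difference of HFD from NFD was 0.94 (SE 0.28, 95% interval 0.32 to 1.56, limma adjusted p = 0.101). The difference of NAC_HFD from HFD was -1.45 (SE 0.28, 95% interval -2.06 to -0.83, limma adjusted p = 0.0599). That of NAC_HFD from NFD was -0.51 (limma adjusted p = 0.312). The first 2 comparisons share the HFD libraries, so their opposite signs are not separate evidence.

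Both adjusted p of Acnat2 moved across 0.05 with the libraries that entered the fit. For HFD against NFD the limma adjusted p was 0.0189 when only those 2 groups were fitted, 0.0420 without NAC_HFD replicate 2 and 0.0442 without NAC_HFD replicate 3, and it ranged up to 0.233 over the 21 alternatives. For NAC_HFD against HFD it was 0.0362 without NAC_HFD replicate 3, the library with 45.2 TPM, and ranged up to 0.182.

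Acnat2 has 3 annotated mRNA transcripts in the deposited transcript tables. ENSMUST00000081541 carried 77.2% to 95.2% of the gene's TPM in the 12 libraries. It measured 31.3, 29.9, 34.7 and 25.5 TPM under NFD, 66.9, 81.3, 43.4 and 58.0 TPM under HFD and 20.6, 14.1, 38.6 and 26.5 TPM under NAC_HFD. ENSMUST00000107698 ranged from 2.28 to 7.14 TPM in NFD, from 6.05 to 9.12 TPM in HFD and from 0.27 to 4.73 TPM in NAC_HFD. ENSMUST00000125123 ranged from 2.13 to 3.94 TPM in NFD, from 2.71 to 6.21 TPM in HFD and from 0.44 to 1.92 TPM in NAC_HFD. All 3 transcripts lay lower in every NAC_HFD library than in every HFD library, which held for 5.79% of the 18183 mRNA transcripts tested. Their log2 differences for NAC_HFD against HFD were -1.34, -1.64 and -1.39 in that order, with limma adjusted p of 0.115, 0.203 and 0.110 over all mRNA transcripts. For HFD against NFD the first transcript was higher in every HFD library, as were 6.37% of mRNA transcripts, and differed by 0.99 (limma adjusted p = 0.113). Of all mRNA transcripts 0.621% passed in HFD against NFD and 0.0055% in NAC_HFD against HFD.

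The authors' deposited table of mRNA transcripts called 2 of these transcripts at an adjusted p of 0.05. That table holds only a part of the 53634 mRNA transcripts with deposited TPM. Its comparison of HFD with NFD lists 1110 transcripts, and its comparison of NAC_HFD with HFD lists 942. How many of the listed transcripts passed was not counted, so these calls have no background share beside them. In the authors' deposited table ENSMUST00000081541 of Acnat2 had a log2 fold change of 1.05 for HFD against NFD (adjusted p 0.0123). The authors' deposited table gave the same transcript -1.22 for NAC_HFD against HFD (adjusted p 0.00337) and gave ENSMUST00000125123 of Acnat2 -1.97 (adjusted p 0.0117). For ENSMUST00000107698 of Acnat2 the authors' deposited table gave -1.66 with an adjusted p of 0.262. Which test lies behind that table, and on which values, is not stated. In limma on the deposited TPM none of the 3 passed 0.05. The authors' values are the log2 of their own ratios, so they are not on the log2(TPM + 1) scale of the limma differences.

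**Figure D2:**
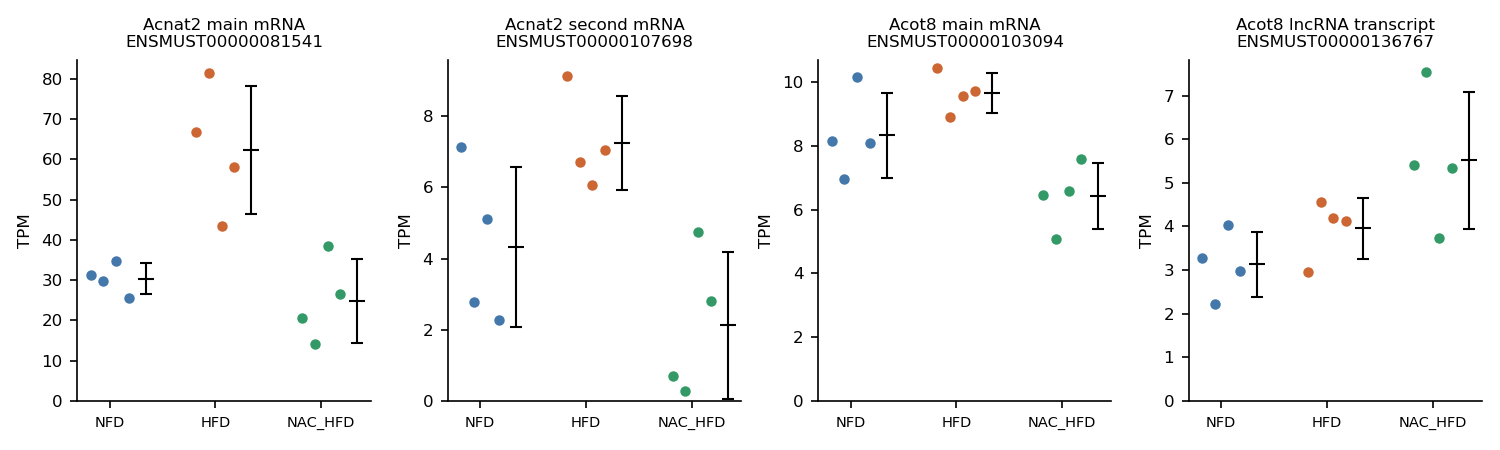
TPM (vertical axes, from 0) of 2 Acnat2 mRNA transcripts, the main Acot8 mRNA and an Acot8 lncRNA transcript in the 4 libraries of NFD, HFD and NAC_HFD (horizontal axes), 1 point per library with mean and SD as a black bar. The main Acot8 mRNA lies between 5.07 and 7.59 TPM in NAC_HFD, under all HFD libraries, while the Acot8 lncRNA transcript reaches 7.55 TPM there.

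Acnat1, the neighbour of Acnat2, gave no such separation. It measured 59.9, 60.9, 92.5 and 46.0 TPM under NFD, 74.3, 81.4, 66.2 and 68.3 TPM under HFD and 47.1, 53.6, 72.3 and 74.5 TPM under NAC_HFD. The groups overlapped in all 3 comparisons. The log2 difference of HFD from NFD was 0.20 and that of NAC_HFD from HFD -0.25, with limma adjusted p of 0.608 and 0.543. The ratio of Acnat2 to Acnat1 within a library, which no scaling of the library changes, was 0.464 to 0.678 in NFD, 0.789 to 1.16 in HFD and 0.276 to 0.625 in NAC_HFD. It was higher in every HFD library than in any of the other 8. Baat, which follows Acnat1 on the chromosome, ranged from 125 to 182 TPM over the 12 libraries, and its limma adjusted p was 0.565 or more in the 3 comparisons.

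Acot12, the cytosolic acetyl-CoA thioesterase, was higher in both high fat groups than in NFD in every library, without passing the test. It measured 60.3, 55.3, 48.2 and 52.4 TPM in NFD. In HFD the 4 libraries were nearly equal at 67.4, 69.4, 67.7 and 66.9 TPM. In NAC_HFD they were 60.5, 61.9, 75.6 and 78.8 TPM, so that the lowest exceeded the highest NFD library by under 1 TPM. The gene's TPM includes an lncRNA transcript, ENSMUST00000161337, of 0.75 to 5.64 TPM in NFD and 4 to 6.96 TPM in NAC_HFD. The only mRNA, ENSMUST00000022120, reached 56.72 TPM in NFD and fell to 56.45 TPM in NAC_HFD, so these groups overlapped (limma adjusted p = 0.123). In HFD against NFD the mRNA was higher in every library (limma adjusted p = 0.217). The log2 difference of the gene was 0.33 for HFD against NFD (SE 0.10, limma adjusted p = 0.106) and 0.35 for NAC_HFD against NFD (SE 0.10, limma adjusted p = 0.0686). Both rest on the same NFD libraries. The second passed after median-of-ratios scaling (0.43, limma adjusted p = 0.0258), after quantile normalization (0.37, limma adjusted p = 0.0380) and without NAC_HFD replicate 1 (0.41, limma adjusted p = 0.0482), and its adjusted p reached 0.174 without NAC_HFD replicate 4. Between HFD and NAC_HFD the Acot12 means differed by 0.02 on the log2 scale (95% interval -0.20 to 0.24).

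Acot13 stood near Acot12 in level. It measured 55.1, 59.2, 43.8 and 52.9 TPM under NFD, 67.6, 74.5, 64.9 and 53.5 TPM under HFD and 53.0, 67.2, 67.8 and 53.6 TPM under NAC_HFD. HFD replicate 4 lay inside the NFD range, and the groups overlapped in all 3 comparisons. The log2 difference of HFD from NFD was 0.30 (SE 0.13), with an unadjusted p of 0.0361 and a limma adjusted p of 0.228.

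Acot8, the peroxisomal thioesterase of broad chain-length range, had the tightest HFD values relative to its level after Acot12, 15.8, 15.8, 16.5 and 16.7 TPM. It measured 13.7, 11.6, 16.3 and 14.3 TPM in NFD and 13.9, 14.9, 11.6 and 14.5 TPM in NAC_HFD. Every NAC_HFD library lay under every HFD library, with a log2 difference of -0.23 (unadjusted p 0.0472, limma adjusted p = 0.298). The gene's TPM is the sum of 2 mRNA and 4 lncRNA transcripts, and these differed in their values by group, without passing the test. The main mRNA, ENSMUST00000103094, was 8.15, 6.96, 10.2 and 8.09 TPM under NFD, 10.4, 8.90, 9.56 and 9.73 TPM under HFD and 6.45, 5.07, 6.60 and 7.59 TPM under NAC_HFD. Its groups did not overlap between NAC_HFD and HFD, and the log2 difference was -0.53 (SE 0.13, limma adjusted p = 0.168). The lncRNA transcript ENSMUST00000136767 was 3.28, 2.23, 4.03 and 2.99 TPM under NFD, 2.96, 4.56, 4.19 and 4.12 TPM under HFD and 5.41, 7.55, 3.74 and 5.35 TPM under NAC_HFD. Its log2 difference was 0.37 for NAC_HFD against HFD (SE 0.20, limma adjusted p = 0.443) and 0.64 for NAC_HFD against NFD (SE 0.20, limma adjusted p = 0.114, where 1.24% of lncRNA transcripts passed). A second lncRNA transcript of Acot8, ENSMUST00000133053, lay the other way, at 1.24, 1.08, 1.35 and 1.65 TPM under NFD, 1.06, 1.84, 1.66 and 2.17 TPM under HFD and 1.32, 1.16, 0.45 and 0.59 TPM under NAC_HFD. The groups of this Acot8 transcript overlapped, and its log2 difference of NAC_HFD from HFD was -0.52 (SE 0.18, limma adjusted p = 0.238). lncRNA transcripts made up 37.5% to 43.5% of the Acot8 TPM in NFD, 31.6% to 43.8% in HFD and 43.1% to 61.2% in NAC_HFD, ranges that overlap between NAC_HFD and each other group.

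Acot3 and Acot4, the peroxisomal pair at the chromosome 12 cluster, varied widely within each group. Acot3 measured 51.5, 37.5, 7.61 and 28.6 TPM under NFD, 99.5, 77.6, 37.0 and 31.3 TPM under HFD and 15.3, 26.2, 55.6 and 40.9 TPM under NAC_HFD. Its lowest value was in NFD replicate 3 and its highest in HFD replicate 1. The mean in HFD was 1.96 times that in NFD, close to the ratio of Acnat2, but with groups that overlapped and a log2 difference of 1.06 with an SE of 0.62 (limma adjusted p = 0.394). The difference of NAC_HFD from HFD was -0.80 (limma adjusted p = 0.554). Acot4 measured 31.6, 27.5, 11.3 and 25.3 TPM under NFD, 42.4, 40.01, 31.6 and 23.6 TPM under HFD and 17.2, 19.3, 27.3 and 24.6 TPM under NAC_HFD. NFD replicate 3 was again the lowest and HFD replicate 1 the highest of the 12. Its log2 difference was 0.56 between HFD and NFD and -0.61 between NAC_HFD and HFD, with limma adjusted p of 0.318 and 0.320.

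The libraries ranked nearly alike for the 2 genes. Across the 12 libraries Pearson's r of Acot3 and Acot4 on the log2(TPM + 1) scale was 0.96 (permutation test with 100000 resamples, p = 2e-05, adjusted p = 0.00072 over the 36 pairs of the 9 genes), and Spearman's rho was 0.87 (permutation p = 0.00028, adjusted p = 0.0101). Without the 2 libraries farthest from the median of Acot3, r was 0.90, and with the group means removed it was 0.97. The ratio of Acot3 to Acot4 still ranged from 0.676 to 2.35, because Acot3 had the wider spread.

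Acot1 and Acot2, the other neighbours of the cluster, were the second pair. Acot1 measured 33.8, 13.8, 39.6 and 51.4 TPM under NFD, 43.9, 34.3, 40.6 and 31.6 TPM under HFD and 30.2, 23.5, 19.2 and 30.3 TPM under NAC_HFD. Acot2 had the lowest mean of the 9 genes in every group, with 5.98, 2.61, 5.97 and 12.9 TPM under NFD, 11.9, 7.39, 7.93 and 7.98 TPM under HFD and 3.70, 2.17, 5.84 and 5.76 TPM under NAC_HFD. Both genes were lower in every NAC_HFD library than in every HFD library, while the NFD libraries overlapped both groups. The log2 differences of NAC_HFD from HFD were -0.54 for Acot1 (SE 0.32, limma adjusted p = 0.427) and -0.91 for Acot2 (SE 0.37, limma adjusted p = 0.249). For HFD against NFD they were 0.24 and 0.46, with limma adjusted p of 0.730 and 0.528, and the sign for Acot1 turned to -0.13 without NFD replicate 2. Pearson's r of Acot1 and Acot2 over the 12 libraries was 0.78 (permutation p = 0.00287, adjusted p = 0.0366) and Spearman's rho 0.85 (permutation p = 0.00071, adjusted p = 0.0128). It was 0.89 without the 2 libraries farthest from the median of Acot1 and 0.72 with the group means removed. The 4 NAC_HFD libraries did not rank alike for the 2 genes, since the one with the lowest Acot1 (19.2 TPM) had the highest Acot2 (5.84 TPM). An lncRNA transcript of Acot1, ENSMUST00000222591, was 0.48, 1.35, 0.12 and 0.66 TPM under NFD, 2.28, 2.34, 3.94 and 1 TPM under HFD and 0.78, 0.97, 0.94 and 0.69 TPM under NAC_HFD. The limma adjusted p of this Acot1 transcript was 0.263 in the comparison of HFD with NFD and 0.215 in that of NAC_HFD with HFD. Of all 10024 lncRNA transcripts tested, 0.0399% passed in each of these 2 comparisons.

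**Figure D3:**
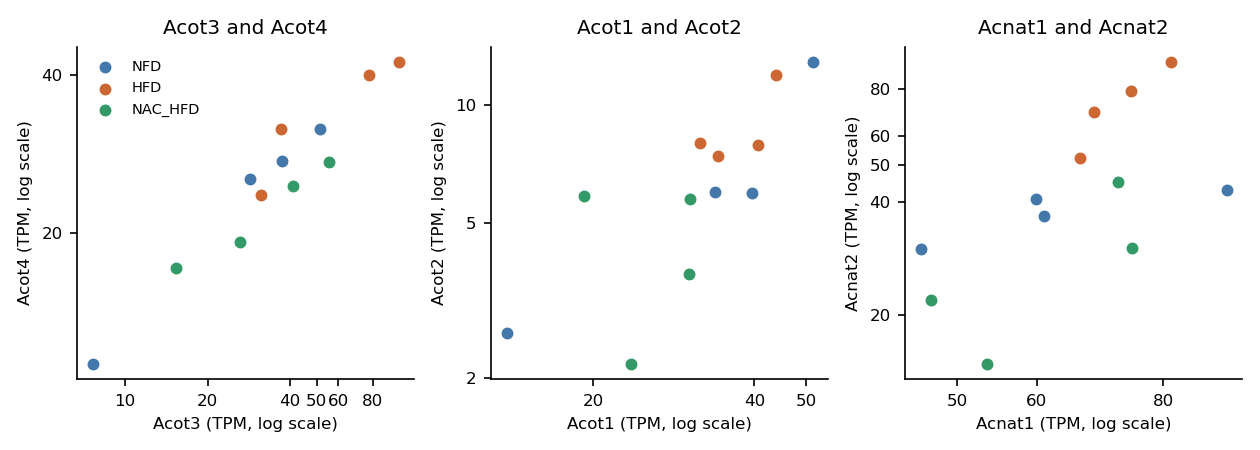
Level of 1 gene against its chromosomal neighbour in each of the 12 libraries, both axes in TPM on a log scale, for Acot3 and Acot4, Acot1 and Acot2, and Acnat1 and Acnat2, with points coloured by group. Acot3 and Acot4 lie along 1 line over all groups, whereas for Acnat1 and Acnat2 the HFD points lie above the others.

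Over the 36 pairs, 3 passed the adjusted threshold by Pearson's r and 2 of them also by Spearman's rho. The third, Acot3 with Acot13, had r = 0.77 (permutation adjusted p = 0.0366) and rho = 0.76 (permutation adjusted p = 0.0802), and r was 0.57 without the 2 farthest libraries, so it rests in part on those. Acnat1 with Acnat2 gave r = 0.65 (permutation adjusted p = 0.116) and rho = 0.66 (permutation adjusted p = 0.1505). All values of a library share its TPM scaling, and no batch is named in the labels against which these relations could be recomputed. The other 2 genes of the chromosome 12 cluster were low. Acot5 was listed at 0 in most libraries and reached at most 0.06 TPM, and Acot6 ranged from 0.41 to 0.84 TPM.

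Taken as a group, the sum of the 9 genes was 305 to 352 TPM in NFD, 370 to 502 TPM in HFD and 263 to 380 TPM in NAC_HFD. The log2 difference of HFD from NFD was above 0 for 9 of the 9 genes with a median of 0.33, where 52.7% of all tested genes were above 0 and their median was 0.01. For NAC_HFD against HFD it was above 0 for 1 gene, Acot12, with a median of -0.54, where 31.5% of all genes were above 0 and their median was -0.08. For NAC_HFD against NFD it was above 0 for 3 genes with a median of -0.04, where 37.5% of all genes were above 0 and their median was -0.07. Groups did not overlap for 2 of 9 genes in HFD against NFD, Acnat2 and Acot12, both higher, as for 7.78% of all genes. In NAC_HFD against HFD they did not overlap for 4 of 9, Acot1, Acot2, Acot8 and Acnat2, all lower, as for 8.66% of all genes. In NAC_HFD against NFD they did not overlap for 1 of 9, Acot12, higher, as for 3.52% of all genes. The mRNA of Acot12 taken alone did overlap in that comparison. The 3 comparisons share libraries pairwise, and the 9 genes are not replicates of each other.

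**Figure D4:**
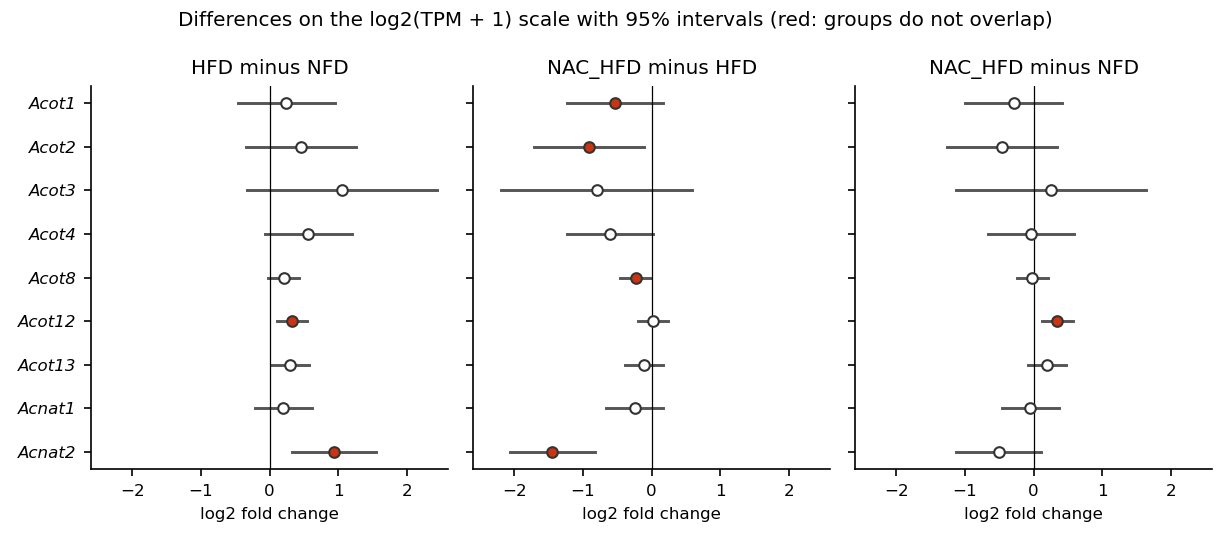
Log2 fold change of each gene (horizontal axes, difference of group means of log2(TPM + 1)) with its 95% interval in the 3 comparisons, genes on the vertical axis, red points where the groups do not overlap. Acnat2 has the interval farthest from 0 in NAC_HFD minus HFD, from -2.06 to -0.83, and Acot3 has the widest intervals.

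The order of the genes by mean TPM differed little between the groups except for Acnat2. In NFD it ran Acnat1, Acot12, Acot13, Acnat2, Acot1, Acot3, Acot4, Acot8, Acot2, and only the step from Acot13 to Acnat2 separated neighbours whose libraries did not overlap. In HFD Acnat2 came first, followed by Acnat1, Acot12, Acot13, Acot3, Acot1, Acot4, Acot8 and Acot2. In NAC_HFD Acot12 came first, followed by Acnat1, Acot13, Acot3, Acnat2, Acot1, Acot4, Acot8 and Acot2. In both high fat groups the libraries of Acot4 and Acot8 and those of Acot8 and Acot2 did not overlap, and all other neighbours did.

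Other thioesterases and enzymes around them were counted from lists of pathway genes. Acot11, a thioesterase of long-chain acyl-CoA known from brown fat, rose on the high fat diet. It measured 0.85, 1.06, 0.90 and 1.17 TPM under NFD, 3.21, 3.81, 2.69 and 5.44 TPM under HFD and 4.66, 4.17, 3.22 and 2.14 TPM under NAC_HFD, so that both high fat groups lay above NFD. Its log2 difference was 1.23 for HFD against NFD (SE 0.19, limma adjusted p = 0.00512) and 1.16 for NAC_HFD against NFD (SE 0.19, limma adjusted p = 0.00659), and -0.08 between NAC_HFD and HFD (limma adjusted p = 0.874). The added 1 TPM shrinks the log2 differences of genes this low. Over the alternatives that of Acot11 ranged from 1.08 to 1.79 for HFD against NFD and from 1.04 to 1.69 for NAC_HFD against NFD. Ppt1, the lysosomal palmitoyl-protein thioesterase, rose by 0.51 in HFD against NFD (SE 0.09, limma adjusted p = 0.00942) and by 0.36 in NAC_HFD against NFD (limma adjusted p = 0.0301). These were the 2 of 9 tested other thioesterases that passed, the same 2 in both comparisons with NFD. Of all tested genes 2.19% rose in HFD against NFD and 1.76% in NAC_HFD against NFD.

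Of 15 tested acyl-CoA synthetases, which make the substrates of the thioesterases, 4 rose and 0 fell in HFD against NFD, where 2.19% of all tested genes rose. They were Acss3 (log2 difference 1.25), Acsm3 (0.62), Acsf2 (0.40) and Acsm1 (0.40), with limma adjusted p of 0.0244, 0.0171, 0.0388 and 0.0252. Acsm3 and Acsm1 also passed in NAC_HFD against NFD, by 0.61 and 0.37. Of 19 tested genes of mitochondrial oxidation 1 rose in HFD against NFD, Hadh, a dehydrogenase of the oxidation spiral, by 0.76 (limma adjusted p = 0.00895). In that comparison 10 of the 19 had an unadjusted p under 0.05 (19.1% of all genes). Of 22 tested genes of peroxisomal oxidation none passed in HFD against NFD. An unadjusted p under 0.05 was found for 8 of the 22, against 19.1% of all genes, and of these 7 had a log2 difference above 0. The other was Ehhadh, the bifunctional enzyme of peroxisomal oxidation, with 151 to 640 TPM in NFD and 140 to 224 TPM in HFD, a log2 difference of -1.15 (limma adjusted p = 0.134) and groups that overlapped. It passed without NFD replicate 2 (-1.60, limma adjusted p = 0.00212). In NAC_HFD against NFD 1 of the 22 passed, where 1.76% of all tested genes rose: Eci2, a peroxisomal enoyl-CoA isomerase, rose by 0.44 (limma adjusted p = 0.0297).

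Of 15 tested genes of coenzyme A turnover, Vnn1, a pantetheinase, rose by 1.14 and Slc25a42, the mitochondrial coenzyme A carrier, by 0.40 in HFD against NFD (limma adjusted p = 0.0248 and 0.0499). In that comparison 2.19% of all tested genes rose. Ppcs, an enzyme of coenzyme A synthesis, fell by 0.44 in NAC_HFD against NFD (limma adjusted p = 0.0323), where 3.52% of all tested genes fell. Of 24 tested further PPARalpha targets 5 rose and 0 fell in HFD against NFD, where 2.19% of all tested genes rose, among them Cd36, a fatty acid transporter, by 1.91 and Aldh3a2, a fatty aldehyde dehydrogenase, by 0.77 (limma adjusted p = 0.0161 and 0.0181). The log2 difference was above 0 for 18 of the 24. Below 0 were Ehhadh and the fatty acid hydroxylases Cyp4a31 (-0.95, limma adjusted p = 0.0773), Cyp4a14 (-0.85, limma adjusted p = 0.374) and Cyp4a10 (-0.44, limma adjusted p = 0.437), among others. Their mean levels in NFD and HFD were 47.4 and 23.8 TPM for Cyp4a31, 1967 and 1016 TPM for Cyp4a14, and 1723 and 1213 TPM for Cyp4a10. Cyp4a31 passed without NFD replicate 2 (limma adjusted p = 0.0150) and without HFD replicate 3 (limma adjusted p = 0.0348). Ehhadh and these values of HFD against NFD were chosen after they were seen. In NAC_HFD against NFD Cyp4a31 fell by 1.60 (limma adjusted p = 0.00920). Ppara itself ranged from 51.9 to 89.3 TPM in NFD, 98.4 to 114 TPM in HFD and 58.6 to 100.2 TPM in NAC_HFD, with a limma adjusted p of 0.0675 for HFD against NFD. A list of 17 tested genes held the Pex genes of peroxisome assembly and Cat, the gene of the enzyme catalase. Of these, Pex11g and Pex11a rose by 0.51 and 0.94 in HFD against NFD (limma adjusted p = 0.0181 and 0.0417), as did 2.19% of all tested genes. Pex11g and Cat rose by 0.38 and 0.42 in NAC_HFD against NFD (limma adjusted p = 0.0425 and 0.0335), as did 1.76% of all tested genes. For NAC_HFD against HFD none of these lists held a gene that passed, as no gene did. The direction of the 9 genes was not particular to them. Differences of HFD from NFD were above 0 for 17 of 19 mitochondrial and 19 of 22 peroxisomal oxidation genes (52.7% of all genes). Those of NAC_HFD from HFD were above 0 for 0 of the 19 and 4 of the 22 (31.5% of all genes). They were so for 1 of the 24 PPARalpha targets and 6 of the 15 acyl-CoA synthetases. The lists share some genes.

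The calls of Acot11 in both comparisons, Ppt1 and Hadh in HFD against NFD, and Acsm3 and Cyp4a31 in NAC_HFD against NFD held under every alternative run for them (Acot11 could not be tested under the 5 TPM filter). Leaving out HFD replicate 1 alone took the other named pathway calls of HFD against NFD over 0.05, with adjusted p from 0.0631 to 0.1496 (limma). The other calls of NAC_HFD against NFD were each lost without 4 to 11 of the 12 libraries, left out in turn. Several of these calls were also lost with all 12 libraries, and that of Slc25a42 in HFD against NFD was lost in 17 of 21 alternatives. In HFD against NFD those of Slc25a42, Acsf2, Pex11a and Vnn1 were lost with no filter (limma adjusted p = 0.0815, 0.0601, 0.0824 and 0.0523), and those of the first 3 under quantile normalization (limma adjusted p = 0.0847, 0.103 and 0.0656). In NAC_HFD against NFD those of Pex11g, Cat, Ppcs and Eci2 were lost with no filter (limma adjusted p = 0.0676, 0.0551, 0.0582 and 0.0516) and that of Cat under quantile normalization (limma adjusted p = 0.115). With the replicate number as a block, Slc25a42 and Acsm1 in HFD against NFD (limma adjusted p = 0.0793 and 0.0521) and Pex11g, Cat, Ppt1, Acsm1 and Eci2 in NAC_HFD against NFD (limma adjusted p = 0.0770, 0.0671, 0.0504, 0.0513 and 0.0539) were lost.

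Markers of cell types were summed in each library. Hepatocyte markers (10 of 10 present) summed to 50701 to 73708 TPM over the 12 libraries. Sums of stellate, sinusoidal endothelial, cholangiocyte, lymphocyte, neutrophil and erythroid markers overlapped between all 3 groups. Their means in NFD, HFD and NAC_HFD were 104, 111 and 112 TPM (stellate) and 99.3, 101 and 90.9 TPM (endothelial). Cholangiocyte means were 19.9, 20.6 and 17.3 TPM, and lymphocyte means 2.675, 3.405 and 3.15 TPM. Neutrophil means were 1.89, 2.97 and 1.66 TPM, and erythroid means 1314, 1064 and 1028 TPM. Markers of Kupffer cells, the liver macrophages, were all present (11 of 11) and summed to 84.4 to 158 TPM in NFD, 111 to 279 TPM in HFD and 77.0 to 152 TPM in NAC_HFD, moving in the direction of Acnat2 with overlapping ranges. Of the 11 genes none passed the test in either comparison with HFD (limma), with an unadjusted p under 0.05 for 4 in HFD against NFD (19.1% of all genes) and for 8 in NAC_HFD against HFD (16.4% of all genes). The log2 difference was above 0 for 11 of the 11 in the first and for 0 of the 11 in the second. In the second it was above 0 for 0 of 7 endothelial and 0 of 5 erythroid markers. It was so for 3 of 8 stellate and 7 of 10 hepatocyte markers there, and for 31.5% of all genes. Markers of fat cells (6 of 7 present) summed to 1.06 to 6.87 TPM in NFD, 14.1 to 44.3 TPM in HFD and 3 to 8.27 TPM in NAC_HFD, so that every HFD library lay above the other 8, as for Acnat2. Adipoq, Retn and Plin1 were under 1 TPM in every group, and Adipoq and Retn were listed at 0 in all 4 NAC_HFD libraries. The sum in HFD thus came almost wholly from Cfd, Plin4 and Cidea, with means of 12.2, 7.94 and 1.895 TPM there. Of the 2 fat cell markers tested, Cfd, the gene of the secreted protease adipsin, rose in HFD against NFD. Cfd, named after its values were seen, ranged from 0.05 to 0.58 TPM in NFD, from 4.74 to 32.7 TPM in HFD and from 0.11 to 1.75 TPM in NAC_HFD. Its log2 difference was 3.03 in HFD against NFD (limma adjusted p = 0.0200, at most 0.0483 over 20 alternatives) and -2.46 in NAC_HFD against HFD (limma adjusted p = 0.0870). The added 1 TPM shrinks these differences too, and the first ranged from 2.43 to 5.15 over the alternatives. The part of these cell types in the differences of Acnat2 and the Acot genes was not tested. In bulk tissue, fewer cells of a type and less RNA per cell cannot be told apart.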

How the data were processed

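Total RNA of mouse liver was prepared with TRIzol and DNase I, per the labels' protocols. The submitters' processing notes name fastp, HISAT and RSEM and build GRCm38, with no version, role or setting. The authors deposited TPM per library in 3 tables, of genes, of mRNA transcripts and of lncRNA transcripts. TPM keeps no depth, so no counting interval or floor was given. The authors' own comparison tables, as deposited, hold only a part of the transcripts, from 789 to 1110 in each. For these they list a ratio, its log2, a p-value and an adjusted p-value per the file headers. No fit used them.

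Groups and replicate numbers come from the sample labels. A gene was tested where its TPM reached 1 in 4 or more of the 12 libraries (11376 of 19252). Values on log2(TPM + 1) entered 1 model of 3 group means (limma 3.58.1, lmFit and eBayes with trend and robust, R 4.3.3, 9 residual degrees of freedom). Tests were two-sided, with Benjamini-Hochberg adjustment over every tested gene of a comparison and a threshold of 0.05. Transcripts were tested in the same way within their own tables. The procedure was tested on simulated data. Correlations used 100000 permutations (scipy 1.17.1). Alternatives were the pseudocount, the filter, the scaling, the prior, the replicate number as a block, fitting only 2 groups, and leaving out each library. The genes, lists and tests were chosen with earlier results of these data known. Named pathway genes are, per list, up to 4 that pass in any comparison, by p. Settings for transcripts and pathway genes were added after seeing the data. Positions and promoters are from RefSeq (GRCm38.p6).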

Additional observations from a re-analysis of the deposited data

Results flagged for a closer look

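One of the 27 sets of 4 libraries (9 genes in 3 groups) held a library far from the others, where chance gives about 1 in 20. For Acot2 the highest HFD library, replicate 1, measured 11.92 TPM against 7.39 to 7.98 TPM in the other 3, a gap of 0.870 of the group's range, above Dixon's critical value for 4 samples. Without that library the log2 difference of Acot2 was 0.32 between HFD and NFD and -0.77 between NAC_HFD and HFD, with limma adjusted p of 0.756 and 0.469. The same library also held the highest value of Acot1 in its group, 43.9 TPM, and the highest Plin2 of the 12, 299.9 TPM.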

How the results depend on the processing

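Of 567 values of the 9 genes under the alternatives, 541 kept their direction and their side of the threshold, 7 passed it newly (all given beside Acnat2 and Acot12 above), and 19 changed sign. The sign changes concerned 6 differences whose limma adjusted p was 0.333 or more in every setting. Median-of-ratios scaling gave 0.037 for Acnat1, 0.040 for Acot4 and 0.059 for Acot8 in NAC_HFD against NFD, and quantile normalization gave 0.040 for Acot8. Leaving out 1 library moved NAC_HFD against NFD over 0 for Acnat1 (-0.19 to 0.14), Acot4 (-0.35 to 0.12), Acot8 (-0.0997 to 0.052) and Acot3 (-0.29 to 0.58), NAC_HFD against HFD for Acot12 (-0.047 to 0.079) and HFD against NFD for Acot1 (-0.13 to 0.48). The number of the 9 genes past the threshold was 1 in HFD against NFD when only 2 groups were fitted and 1 in NAC_HFD against NFD under median-of-ratios scaling and under quantile normalization. Leaving out 1 library gave 0 to 1 of the 9 in each comparison. Over all genes, using no filter gave 168 in HFD against NFD and 289 in NAC_HFD against NFD, and fitting only 2 groups gave 188 in the latter. Leaving out 1 library gave 90 (without HFD replicate 1) to 375 genes in HFD against NFD, 0 to 64 (without NAC_HFD replicate 1) in NAC_HFD against HFD and 211 (without NAC_HFD replicate 4) to 618 in NAC_HFD against NFD. The cause was not tested, beyond fewer libraries or more genes entering those fits. All 160 values of the 10 transcript differences kept their direction and side. With the replicate number as a block, 225, 3 and 406 genes and 0 of the 9 passed in the 3 comparisons. Same-numbered libraries deviated together with correlations from -0.17 to 0.18, and 1 of 4 correlated best with its own number in HFD against NFD, so the numbers were not read as pairs. The depth of the libraries is unknown, which limits what can be said of low values such as those of the Acot1 lncRNA transcript.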

Other observations

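For the 3 of the 9 genes with the smallest unadjusted p, the other genes with the most similar pattern across the 12 libraries were looked up, by Pearson's r on the log2(TPM + 1) scale among 11367 genes. They are the highest of many, so r is given as a description with no test. For Acnat2 they were Gstm5, a glutathione transferase (r = 0.94), and 5730455P16Rik (r = 0.94). Gstm5 measured 4.92 ± 0.414 TPM in NFD, 6.85 ± 1.43 TPM in HFD and 4.15 ± 1.20 TPM in NAC_HFD (SD, n = 4). For Acot12 they were Abhd14b (r = 0.97) and Gamt, the enzyme of the last step of creatine synthesis (r = 0.95). Gamt measured 61.4 ± 14.0 TPM in NFD, 102 ± 7.27 TPM in HFD and 104 ± 21.4 TPM in NAC_HFD (SD, n = 4), both high fat groups above NFD in every library. For Acot2 they were Plin2, a coat protein of lipid droplets (r = 0.95), and Rtf2 (r = 0.93). Plin2 measured 178 ± 71.3 TPM in NFD, 223 ± 52.8 TPM in HFD and 137 ± 49.1 TPM in NAC_HFD (SD, n = 4), with the lowest value in NAC_HFD replicate 2, as for Acot2.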
